A study of Mus musculus with 23 samples.

Results

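The change from wild-type nerve to neurofibroma was compared between Schwann cells (SCs) and macrophages that had been sorted from the same kinds of tissue, SCs as p75+ cells and macrophages as F4/80+;CD11b+ cells. For each gene the quantity reported is the difference of changes, the change in SCs (neurofibroma minus wild type) minus the change in macrophages, on the log2 scale of the deposited values. A positive value means that expression moved up in SCs relative to macrophages, through a gain in SCs, a loss in macrophages or both. It was computed for all 22180 genes from 13 of the 23 arrays of the series, with 3 arrays of wild-type SCs, 3 of neurofibroma SCs, 3 of wild-type macrophages and 4 of neurofibroma macrophages. Wild-type cells came from dorsal root ganglia and nerve of Nf1fl/fl mice aged 1 month, and neurofibroma cells came from Nf1fl/fl;DhhCre mice aged 7 months. The sources differ on the strain, which the sample labels give as C57BL/6 and BALB/c (mixed) and the study's methods as C57Bl/6. All mice carried the floxed Nf1 alleles, and no agent was given. DhhCre is active in the SC lineage, so the macrophages kept functional Nf1, and the p75+ SCs of these mice are a mixture of recombined and unrecombined cells per the study. Tissue of several mice was pooled at 1 month. Because wild-type mice were younger than neurofibroma mice, age and tumour cannot be told apart.

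Neurofibromas are benign tumours of peripheral nerve that form after SCs lose Nf1, which encodes neurofibromin, a protein that switches RAS off. SCs in them sit beside many macrophages, and the study predicts from expression that growth factors and chemokines act between the cell types. It also reports that medium from neurofibroma SCs increased macrophage migration, which an antibody to CSF1 reduced. Cytokine proteins were measured in its tumour lysates. The study leaves a direct effect of macrophages on SCs to be shown. Nerve macrophages carry a program of tissue residence and repair that is often called alternative activation, and SCs are lipid producers, since myelin is rich in cholesterol and fatty acids made in the cell.

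The arrays of the 1-month-old mice had medians between 3.94 and 4.17 and those of the 7-month-old mice between 3.07 and 3.19, and a universal control RNA run at each level differed by a median of -0.63. A shift shared by both cell types cancels in the difference of changes, whose median over all genes was 0.02. It does not cancel within a cell type, so changes within SCs or within macrophages are given after each array's median had been subtracted, with medians over all genes of 0.25 in SCs and 0.29 in macrophages. Calls of these changes were made against 0 and not against these medians, so a rise just above 1 can hold part of the shift. Nf1 itself was 7.24, 7.27 and 7.16 in wild-type SCs and 6.75, 6.66 and 6.84 in neurofibroma SCs, and 6.85, 6.30 and 6.38 in wild-type and 6.65, 6.77, 6.59 and 6.40 in neurofibroma macrophages, all as deposited. After centring, its SC change of 0.43 was not called, and its macrophage change of 1.07 was called higher. Its difference of changes was -0.57 (standard error 0.21, adjusted p = 0.147 from limma). The array reads probes spread along the transcript, so these values do not check the deletion.

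Sorted cells carried the markers of their labels when lists of genes were averaged. The mean of 28 SC genes lay 2.97 to 3.25 above the array median in wild-type SCs and 2.55 to 3.05 in neurofibroma SCs, against 0.35 to 0.69 and -0.01 to 0.27 in macrophages. The mean of 31 macrophage genes lay 4.63 to 4.87 and 5.01 to 5.26 above it in macrophages. Other cells' genes were also present and moved with the groups. The 31 macrophage genes went from between 0.24 and 0.82 in wild-type SCs to between 1.21 and 1.46 in neurofibroma SCs, so the ranges did not overlap. In macrophages the mean of 23 nerve fibroblast genes went from between 1.90 and 2.51 to between 1.07 and 1.24, and that of 14 endothelial genes from between 0.25 and 0.96 to between 0.02 and 0.22. In SCs the fibroblast genes lay higher than the SC genes themselves, between 4.00 and 4.25 in wild type and between 3.6 and 3.84 in neurofibroma, without overlap. Endothelial genes lay between 1.92 and 2.55 in wild-type SCs and between 2.10 and 3.42 in neurofibroma SCs, which overlap. In SCs 17 smooth muscle and pericyte genes went from between 1.79 and 2.38 to between 0.85 and 1.00. Genes of the seminal vesicle, a tissue that neither sort should hold, averaged 3.30 in wild-type SC array 2, 1.08 and 3.83 in wild-type macrophage arrays 5 and 6 and 0.58 in neurofibroma SC array s4992, and lay below the array median on all 9 others. In such bulk samples fewer cells of a type and less RNA per cell cannot be told apart.

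**Figure D1:**
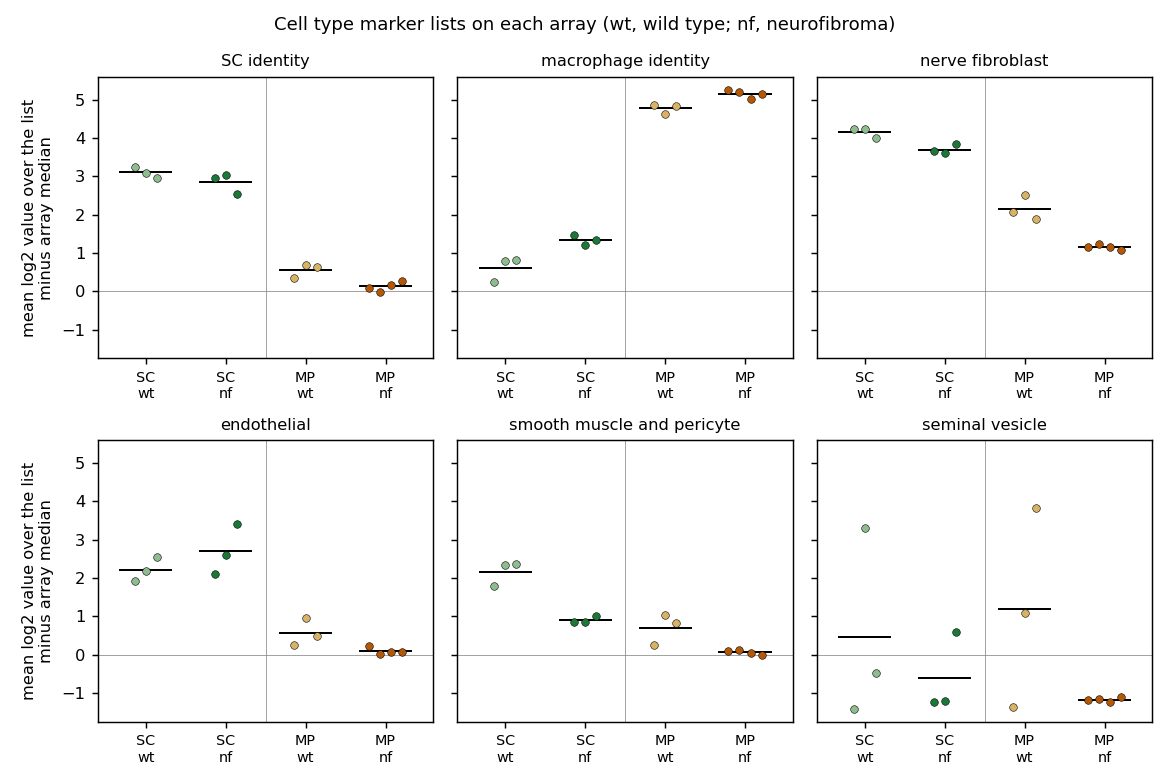
Mean log2 value of the genes of 6 marker lists on each of the 13 arrays, relative to the array median (vertical axis), by group (SC, Schwann cell; MP, macrophage; wt, wild type at 1 month; nf, neurofibroma at 7 months). Points are arrays and lines are group means; nerve fibroblast genes lie between 1.90 and 2.51 in wild-type macrophages and between 1.07 and 1.24 in neurofibroma macrophages, and 4 arrays stand out for seminal vesicle genes.

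The change from wild type to neurofibroma differed between the cell types at 828 genes, 3.73% of those tested, called at an adjusted p under 0.05 with a difference above 1 on the log2 scale. Of these, 268 genes (1.21%) moved up in SCs relative to macrophages and 560 (2.52%) moved down. Without the minimum difference 1099 genes passed. Nothing in the labels says how far the arrays of a group are independent, so the p-values measure only the spread between these samples. The balance depended on the scaling, since centring the arrays on their medians gave 223 and 694 genes and quantile normalization 320 and 405. Among the 828 genes, 433 were called in each of the 13 fits that left out 1 array, and with macrophage wild-type arrays 5 and 6 both left out 540 genes were called.

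Within SCs 792 genes (3.57%) were higher and 682 (3.07%) lower in neurofibroma than in wild type, and within macrophages 1484 (6.69%) were higher and 311 (1.4%) lower. These counts rest on the centring, with 378 and 819 in SCs and 435 and 552 in macrophages after quantile normalization. A fit of all 23 arrays that held the array level as a term, bridged by the universal control alone, left 40 and 29 genes in SCs and 36 and 10 in macrophages. Of the 268 genes that moved up in SCs relative to macrophages, 83 were called higher in SCs alone, 83 lower in macrophages alone and 17 in both ways. Of the 560 that moved down, 217 were called lower in SCs alone, 187 higher in macrophages alone and 5 in both ways.

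**Figure D2:**
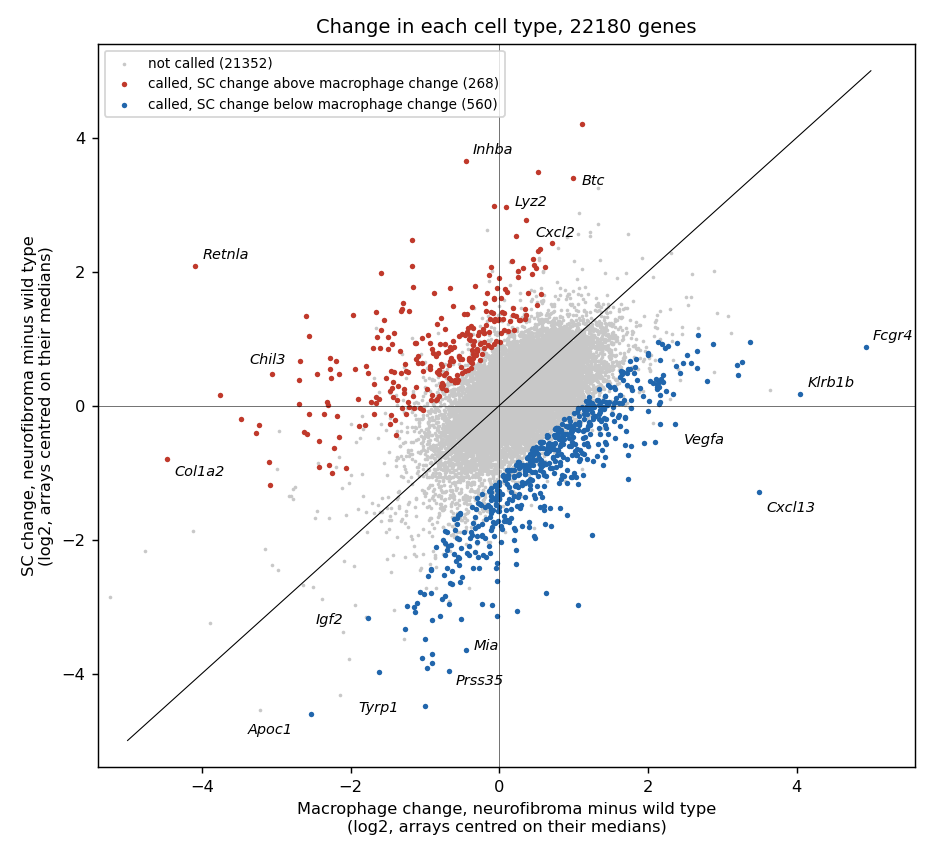
Change from wild type to neurofibroma in SCs (vertical axis) against that in macrophages (horizontal axis), both in log2 after centring arrays on their medians, for 22180 genes. The diagonal marks equal changes, the 268 red genes lie above it and the 560 blue genes below it, with Retnla at a macrophage change of -4.09 and Fcgr4 at 4.93.

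Genes of several secreted factors rose in SCs and were called up relative to macrophages. Inhba, on chromosome 13 at 16004256 to 16031609 (GRCm38.p6), encodes the subunit of activin A, a ligand of the TGF-beta family. Its values were 6.91, 6.71 and 6.94 in wild-type SCs and 9.95, 9.39 and 9.49 in neurofibroma SCs, and 5.42, 6.86 and 6.23 in wild-type and 4.95, 4.90, 5.15 and 3.96 in neurofibroma macrophages. All neurofibroma SC arrays were above all other arrays, and the macrophage groups did not overlap and ran the other way as deposited. The difference of changes was 4.18 (standard error 0.46, adjusted p = 0.00033), with a rise of 3.66 in SCs and a macrophage change of -0.45 that did not pass the test. Among 31 genes of the TGF-beta family Inhba was the sole gene called, and Tgfb1 had 0.97 (adjusted p = 0.0297), just under the minimum difference. A single call among 31 does not set the family apart from the 3.73% called over all genes.

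Btc, which encodes betacellulin, an activator of the EGF receptor, was 6.28, 5.64 and 5.82 in wild-type SCs and 8.56, 8.90 and 7.75 in neurofibroma SCs. In macrophages it was 4.47, 4.31 and 4.40 in wild type and 3.86, 4.46, 4.74 and 4.57 in neurofibroma, overlapping as deposited. The difference of changes was 2.48 (standard error 0.38, adjusted p = 0.003). Lif, a cytokine of the interleukin 6 family that injured nerve releases, went from 7.39, 7.95 and 7.53 to 9.14, 9.47 and 8.57 in SCs and from 5.13, 5.43 and 5.34 to 4.73, 4.56, 5.10 and 5.10 in macrophages, without overlap in SCs. Its difference was 1.86 (standard error 0.31, adjusted p = 0.00459). Csf1, the growth factor on which macrophages depend, went from 8.56, 8.14 and 8.64 to 9.83, 9.99 and 9.12 in SCs and from 5.54, 6.52 and 5.87 to 5.72, 4.90, 5.61 and 5.62 in macrophages. SC groups did not overlap and macrophage groups did. The difference of 1.72 (standard error 0.40, adjusted p = 0.025) lost its call without SC wild-type array 2 and without 3 other arrays left out in turn, SC neurofibroma arrays s4481 and s4486 and macrophage wild-type array 5, with an adjusted p of up to 0.064. Its receptor gene Csf1r had a difference of 0.09 (adjusted p = 0.904).

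**Figure D3:**
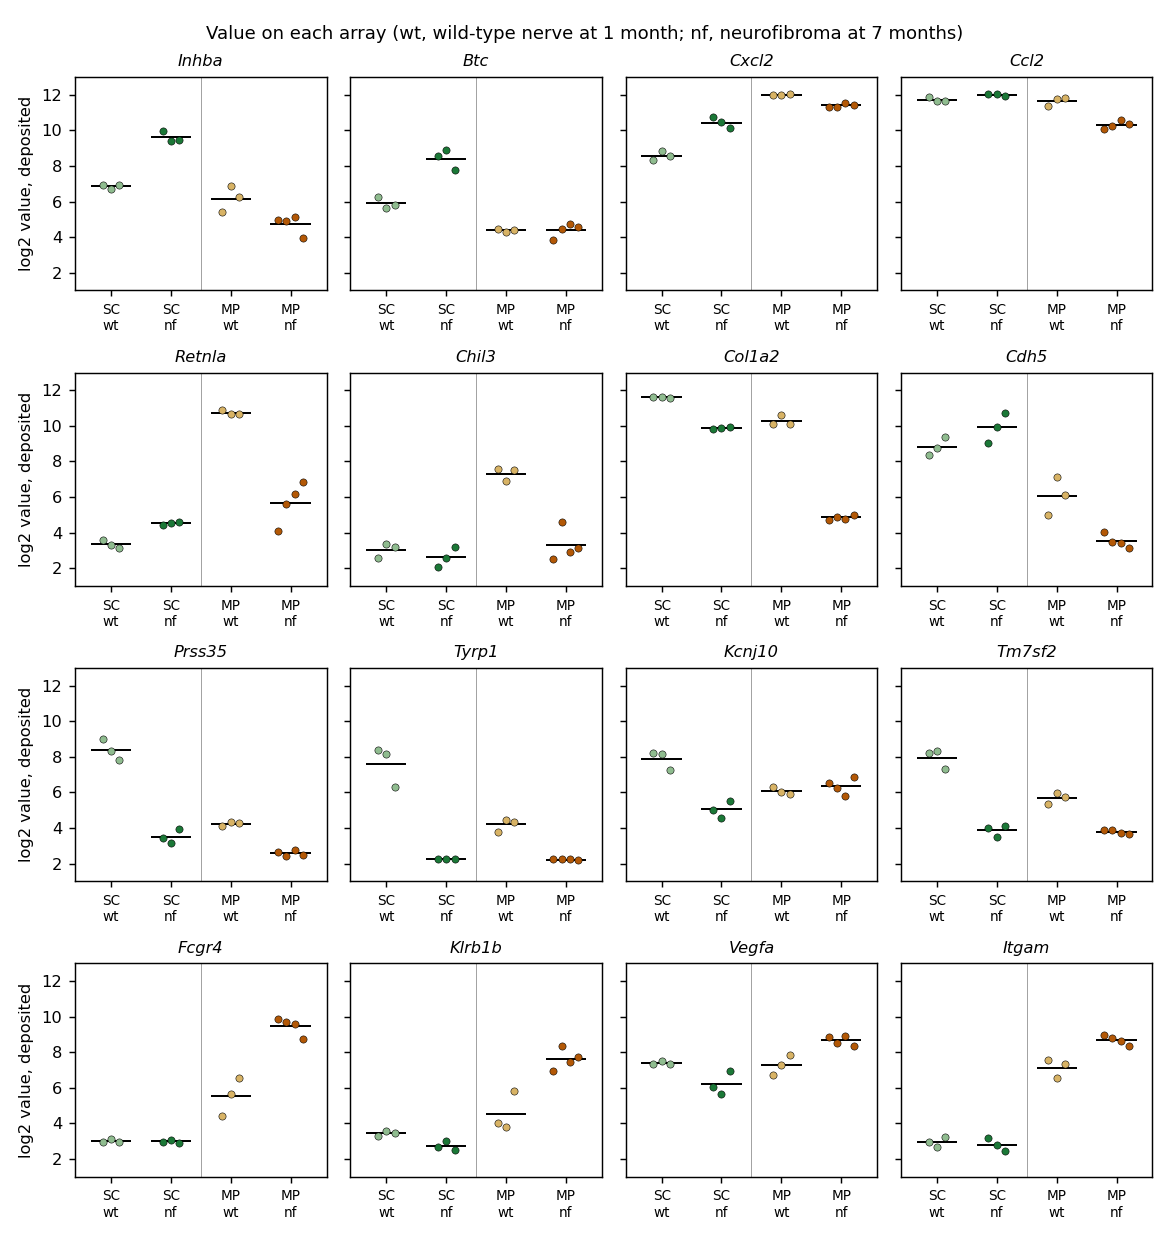
Deposited log2 value (vertical axis) of 16 genes on each of the 13 arrays, by group (SC, Schwann cell; MP, macrophage; wt, wild type at 1 month; nf, neurofibroma at 7 months). Points are arrays and lines are group means; the top row holds genes that rose in SCs, and Fcgr4 in the bottom row is between 8.76 and 9.88 in neurofibroma macrophages against 4.43 to 6.54 in wild type and about 3 in SCs.

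Several chemokine genes moved up in SCs relative to macrophages. Of 17 CC chemokine genes, 4 were called up and 0 down, with a median difference of 0.61. Of 16 CXC and other chemokine genes 3 were called up and 1 down, with a median of 0.60. Over all genes 1.21% were called up and 2.52% down. The CXC count ran from 1 to 4 up when 1 array was left out, and was 1 up and 1 down without macrophage wild-type arrays 5 and 6 and without the 4 arrays with seminal vesicle transcripts. Cxcl2, which attracts neutrophils, was 8.35, 8.83 and 8.56 in wild-type SCs and 10.77, 10.45 and 10.12 in neurofibroma SCs, while macrophages went from 12.02, 11.99 and 12.05 to 11.32, 11.34, 11.55 and 11.43. SCs thus came within about 1 log2 unit of the macrophage level from more than 3 below it. After centring Cxcl2 rose by 2.77 in SCs, and its macrophage change of 0.36 was not called. The difference of changes was 2.48 (standard error 0.23, adjusted p = 0.000172). Ccl2, the ligand of CCR2 that draws monocytes, was 11.88, 11.67 and 11.66 in wild-type SCs and 12.05, 12.05 and 11.96 in neurofibroma SCs, and went from 11.39, 11.79 and 11.80 to 10.06, 10.24, 10.60 and 10.34 in macrophages. As deposited, neurofibroma arrays were above wild-type arrays in SCs and below them in macrophages, without overlap in either. After centring Ccl2 rose by 1.18 in SCs, and its macrophage change of -0.38 was not called. The difference was 1.63 (standard error 0.22, adjusted p = 0.00115), and Ccl7, a related monocyte chemokine, had 1.59 (adjusted p = 0.0147). Ccl11, an eosinophil chemokine, differed by 2.70 (standard error 0.37, adjusted p = 0.00147), with a rise of 1.42 in SCs and a fall in macrophages, a change of -1.21. Cxcl3 (1.81, adjusted p = 0.0488) lost its call in 11 of the 13 fits without 1 array, all but those without SC wild-type array 2 or SC neurofibroma array s4486, with an adjusted p of up to 0.0952.

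Further genes of inflammatory signalling were among those that rose in SCs. Il1rn, the antagonist of the interleukin 1 receptor, went from 4.16, 4.82 and 4.82 to 5.91, 5.51 and 5.58 in SCs and from 10.09, 10.28 and 10.31 to 9.38, 9.73, 10.08 and 9.57 in macrophages. The groups did not overlap in either cell type as deposited. After centring Il1rn rose by 1.97 in SCs, and its macrophage change of 0.44 was not called. The difference was 1.60 (standard error 0.29, adjusted p = 0.00682). Tnfaip2, a gene induced by tumour necrosis factor, differed by 1.80 (standard error 0.33, adjusted p = 0.00783), and Plaur, the receptor of urokinase, by 1.44 (adjusted p = 0.00312). Lyz2, which encodes the lysozyme that myeloid cells secrete, differed by 2.95 (adjusted p = 0.0328), with 5.13, 3.92 and 7.14 in wild-type SCs and 7.60, 7.14 and 7.62 in neurofibroma SCs. The SC arrays met at 7.14, and the call was lost in 10 of the 13 fits without 1 array, all but those without SC wild-type arrays 2 or 3 or SC neurofibroma array s4486, with an adjusted p of up to 0.0699. Macrophage genes as a list rose in SCs by the values given above, and their part in these results was not tested.

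NF-kappaB is a transcription factor that drives many chemokine genes, and its motif was looked up in RefSeq promoter windows of 300 bases (250 before to 50 after the gene start, GRCm38.p6). The letters GGGANTTTC on either strand were present in 3 of the 70 windows of genes that were called up and rose in SCs, a share of 4.29%, against 1.15% of 27025 promoters and 4 of 191 windows (2.09%) of all genes called up. These 3 belong to Cxcl2, Cxcl3 and Csf1 and are shown with the motif in capitals, at -97, -73 and -153 from the start, overlapping none of the other motifs searched. The Cxcl2 window is chr5:90903649-90903948 (plus strand), the Cxcl3 window chr5:90785851-90786150 (plus strand) and the Csf1 window chr3:107760420-107760719 (minus strand).
Cxcl2: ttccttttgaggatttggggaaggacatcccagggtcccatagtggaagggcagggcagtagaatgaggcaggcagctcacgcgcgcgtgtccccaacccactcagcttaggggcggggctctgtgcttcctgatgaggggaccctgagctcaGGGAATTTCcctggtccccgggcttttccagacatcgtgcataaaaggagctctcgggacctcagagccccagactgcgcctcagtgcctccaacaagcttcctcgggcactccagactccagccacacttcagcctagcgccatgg
Cxcl3: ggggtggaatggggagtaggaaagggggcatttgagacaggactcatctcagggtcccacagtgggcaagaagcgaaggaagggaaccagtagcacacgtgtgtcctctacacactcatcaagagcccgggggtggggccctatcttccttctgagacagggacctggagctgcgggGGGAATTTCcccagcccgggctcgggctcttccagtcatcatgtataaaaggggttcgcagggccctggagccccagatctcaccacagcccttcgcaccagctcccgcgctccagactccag
Csf1: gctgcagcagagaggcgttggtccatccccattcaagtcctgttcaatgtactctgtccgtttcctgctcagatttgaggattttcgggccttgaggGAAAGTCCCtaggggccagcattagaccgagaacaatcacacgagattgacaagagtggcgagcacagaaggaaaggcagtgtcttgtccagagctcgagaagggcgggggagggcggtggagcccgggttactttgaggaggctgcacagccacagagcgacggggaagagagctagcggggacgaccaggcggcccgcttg
The AP-1 motif TGANTCA was in 23 of 191 windows of genes called up (12%) and in 27 of 435 of genes called down (6.21%), against 7.93% of all promoters, and in 9 of the 70 of genes that rose in SCs (12.9%). The interferon-stimulated response element, searched as GAAANNGAA, was in 17 (8.90%) and 37 (8.51%), against 8.57%, and in 3 of the 70 (4.29%). Such matches describe letters in a window and are no evidence of binding.

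Genes of alternative activation fell in macrophages. Of 24 such genes, 10 were called up in SCs relative to macrophages and 0 down, against 1.21% and 2.52% over all genes. The list had a median difference of 1.06, and all 10 called genes fell within macrophages. Retnla, on chromosome 16 at 48842609 to 48844461, encodes a secreted protein induced by interleukin 4. It was 10.87, 10.66 and 10.69 in wild-type macrophages and 4.07, 5.62, 6.15 and 6.85 in neurofibroma macrophages, and 3.56, 3.30 and 3.14 in wild-type and 4.41, 4.54 and 4.60 in neurofibroma SCs. The neurofibroma macrophage arrays spread widely and all lay far below the wild-type arrays. The difference of changes was 6.25 (standard error 0.65, adjusted p = 0.00026), the largest of the genes named here, with a macrophage change of -4.09 and a rise of 2.09 in SCs.

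Chil3, a chitinase-like protein of macrophages, went from 7.55, 6.89 and 7.51 to 2.50, 4.62, 2.88 and 3.14 in macrophages and from 2.56, 3.33 and 3.21 to 2.07, 2.59 and 3.17 in SCs. Macrophage groups did not overlap, and 3 of its 4 neurofibroma values lay within the range of SCs, the exception being 4.62 on array s4448. The difference was 3.61 (standard error 0.61, adjusted p = 0.00483). Mgl2, a lectin, went from 6.32, 5.91 and 6.23 to 2.45, 2.43, 2.82 and 2.77 in macrophages, with 2.51 (standard error 0.27, adjusted p = 0.000285). Folr2, a folate receptor of resident macrophages, went from 9.21, 9.56 and 9.61 to 6.23, 6.65, 6.80 and 7.49, with 2.09 (adjusted p = 0.00368). Cd163, the scavenger receptor for haemoglobin, differed by 2.38 (adjusted p = 0.00729), F13a1, a clotting factor subunit, by 2.33 (adjusted p = 0.000285) and Cbr2, a carbonyl reductase, by 1.98 (adjusted p = 0.018). The list was not uniform. Arg1, the arginase of alternative activation, had -1.11 (adjusted p = 0.315) and Mrc1, the mannose receptor, 0.36 (adjusted p = 0.572). Within macrophages 12 of the 24 genes fell and 4 rose, the latter being Ccl8, Il4ra, Tgm2 and Arg1. Lyve1, a receptor of resident macrophages, fell in both cell types, with changes of -2.77 in macrophages and -1.40 in SCs, and its difference of 1.45 was not called (adjusted p = 0.0766). Without the 4 arrays with seminal vesicle transcripts 7 genes of the list were called up and 1 down.

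**Figure D4:**
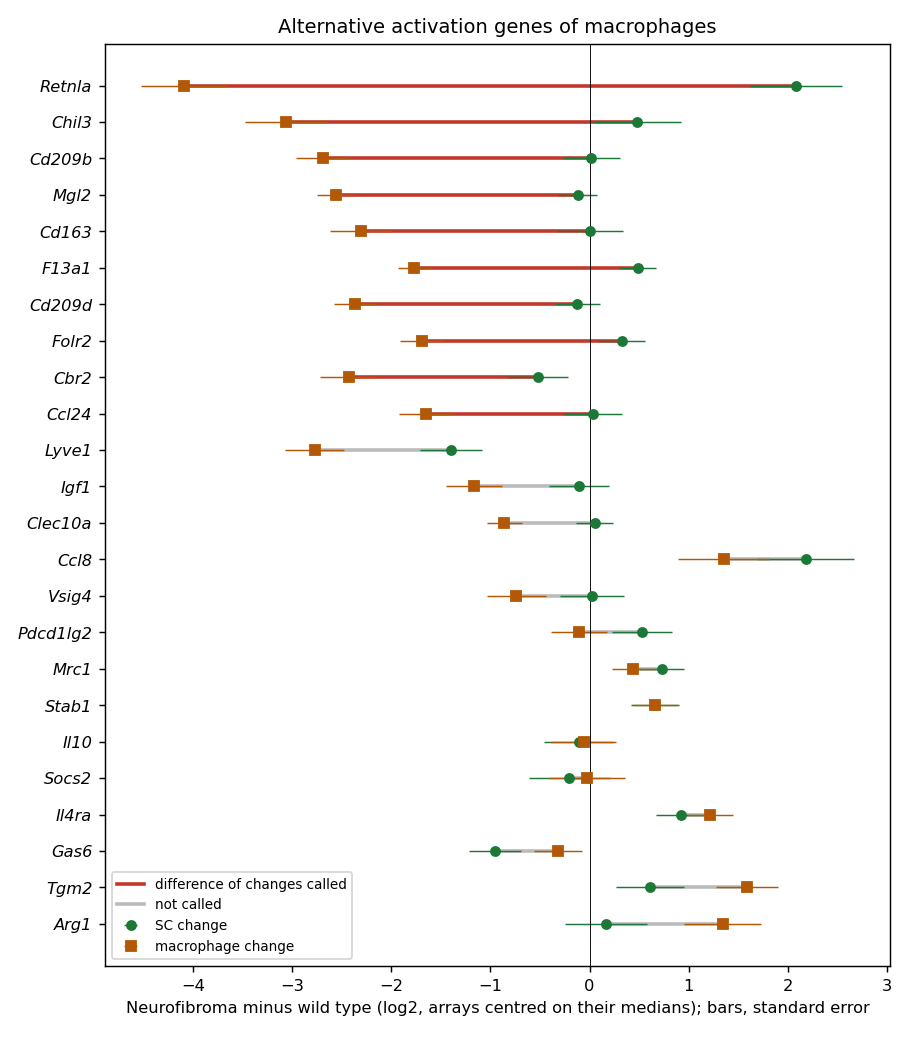
Change from wild type to neurofibroma in SCs (circles) and macrophages (squares) for 24 genes of alternative activation, in log2 after centring arrays on their medians, with standard errors. A red line joins the changes of the 10 genes whose difference was called; in all 10 the macrophage change lies to the left, from -4.09 for Retnla to -1.65 for Ccl24.

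Genes of connective tissue and vessels were also called up in SCs relative to macrophages. Of 23 nerve fibroblast genes 7 were called up in SCs relative to macrophages and 0 down. Of 32 collagen and basement membrane genes 9 were called up and 2 down, against 1.21% and 2.52% over all genes. Col1a2 encodes part of the type I collagen fibre and lies on chromosome 6 at 4505618 to 4541543. It was 10.12, 10.64 and 10.11 in wild-type macrophages and 4.73, 4.88, 4.78 and 5.01 in neurofibroma macrophages. In SCs it went from 11.62, 11.62 and 11.57 to 9.85, 9.88 and 9.96. Neither cell type's groups overlapped as deposited, and the fall in macrophages was the deeper. After centring, Col1a2 had a change of -4.47 in macrophages, and its SC change of -0.80 was not called. The difference was 3.74 (standard error 0.20), with the lowest adjusted p of all genes, 1.08e-06. Dcn, a proteoglycan of collagen fibres, went from 10.13, 10.42 and 10.06 to 6.92, 7.27, 7.72 and 7.25 in macrophages, with 2.55 (adjusted p = 0.000208). Col6a1, a chain of type VI collagen, differed by 3.01 (adjusted p = 0.00076), Lum, a related proteoglycan, by 3.12 (adjusted p = 0.00031) and Mmp2, a gelatinase of stromal cells, by 2.75 (adjusted p = 0.000424).

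Cdh5, the cadherin of endothelial junctions, went from 4.97, 7.15 and 6.10 to 4.02, 3.47, 3.40 and 3.14 in macrophages and from 8.35, 8.78 and 9.38 to 9.05, 9.93 and 10.75 in SCs. Macrophage groups did not overlap, and SC groups overlapped as deposited. The difference was 3.64 (standard error 0.68, adjusted p = 0.00867). Of 14 endothelial genes 2 were called up, Cdh5 and Emcn, and 0 down, against 1.21% and 2.52% over all genes. The median difference of the endothelial genes was 0.54. Emcn, an endothelial sialomucin, differed by 3.66 (adjusted p = 0.00708) and Rgs5, a pericyte gene, by 3.35 (adjusted p = 0.00441). Rgs5 was the exception in its list, since of 17 smooth muscle and pericyte genes 1 was called up and 1 down, with a median of -0.73, and within SCs 10 fell and 1 rose. Without macrophage wild-type arrays 5 and 6 Cdh5 was not called, and without the 4 arrays that carry seminal vesicle transcripts none of Cdh5, Emcn and Rgs5 was called. Fibroblast and endothelial markers were above the array median in wild-type macrophages and lower in neurofibroma macrophages, as given above. Their part in these differences was not tested. Without those 4 arrays 4 fibroblast genes and 6 collagen and basement membrane genes were called up.

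Genes of lipid synthesis fell in SCs. Of 19 genes of cholesterol synthesis and its control, 10 were called down in SCs relative to macrophages and 0 up. Over all genes the shares were 2.52% down and 1.21% up. All 19 had a negative difference, with a median of -1.15 and a range from -2.38 to -0.02. Within SCs 12 fell, and within macrophages 0 fell and 0 rose. Tm7sf2, a sterol reductase on chromosome 19 at 6062821 to 6067850, was 8.22, 8.33 and 7.34 in wild-type SCs and 3.98, 3.52 and 4.09 in neurofibroma SCs. In macrophages it went from 5.33, 5.96 and 5.72 to 3.89, 3.88, 3.74 and 3.66. SC values thus came down to the macrophage level in neurofibroma. The difference was -2.22 (standard error 0.33, adjusted p = 0.00256).

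Fdft1, the squalene synthase, went from 9.12, 9.40 and 8.78 to 5.63, 6.91 and 6.23 in SCs and from 5.90, 5.97 and 6.14 to 5.34, 5.45, 5.71 and 5.49 in macrophages. Neither cell type's groups overlapped as deposited, with the wider gap in SCs. After centring, Fdft1 had a change of -1.94 in SCs, and its macrophage change of 0.47 was not called. The difference was -2.33 (standard error 0.35, adjusted p = 0.0025). Nsdhl, a sterol dehydrogenase, went from 8.60, 8.57 and 7.55 to 5.21, 5.19 and 5.70 in SCs and from 4.90, 5.96 and 5.50 to 5.21, 4.36, 4.97 and 5.31 in macrophages, with -2.38 (standard error 0.45, adjusted p = 0.00949). Dhcr7, the last enzyme of the pathway, differed by -1.67 (adjusted p = 0.0101), Lss, the lanosterol synthase, by -1.66 (adjusted p = 0.016) and Fdps, the farnesyl diphosphate synthase, by -1.62 (adjusted p = 0.0151). The smallest called differences were those of Msmo1 (-1.15, adjusted p = 0.00403) and Hmgcs1 (-1.08, adjusted p = 0.012), the latter not called without SC neurofibroma array s4992 or without macrophage wild-type array 4. Sqle (-0.49, adjusted p = 0.282), Insig1 (-0.49, adjusted p = 0.388) and Srebf2 (-0.18, adjusted p = 0.777), the transcription factor gene of the pathway, were not called. Leaving out 1 array at a time gave 9 to 13 called genes, leaving out the 4 arrays with seminal vesicle transcripts 6, and against mutant nerve in place of wild type 1, with a median of -0.84.

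**Figure D5:**
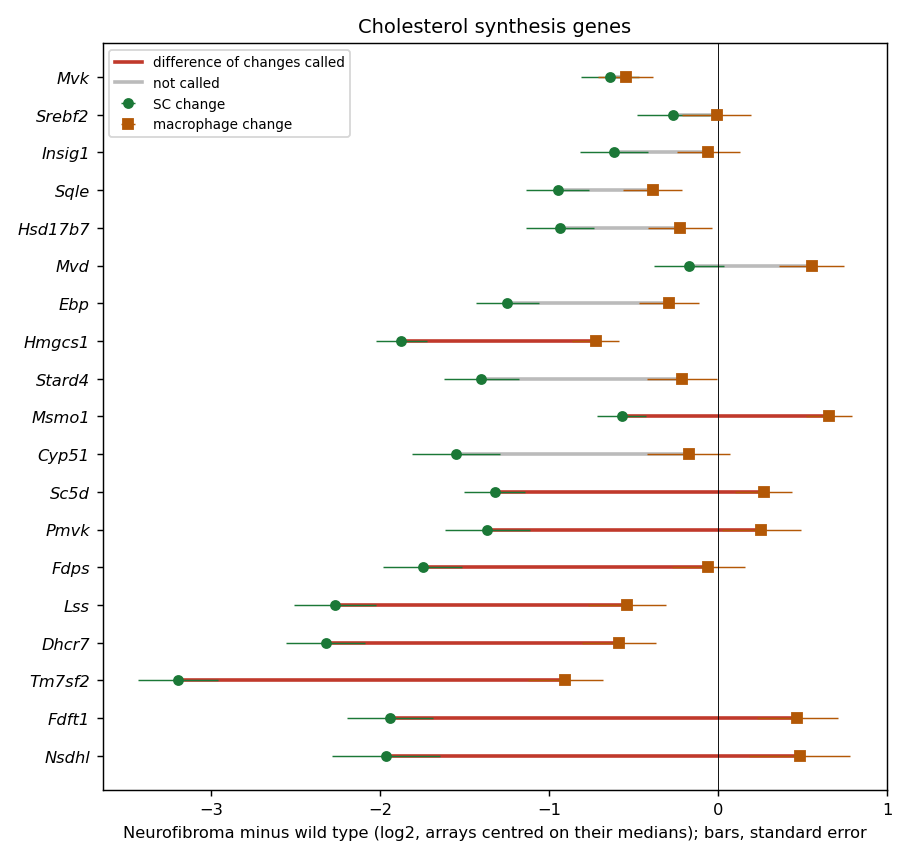
Change from wild type to neurofibroma in SCs (circles) and macrophages (squares) for 19 cholesterol synthesis genes, in log2 after centring arrays on their medians, with standard errors. A red line joins the changes of the 10 genes whose difference was called, and the SC change lies left of the macrophage change for all 19.

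The promoter windows of 8 of the 10 genes called down were matched, and the sterol regulatory element, the motif bound by SREBP factors, searched as TCACNCCA, was in 2 of them against 4.28% of all promoters. Both are shown as examples of the element in genes of the list, with the motif in capitals at -137 in Hmgcs1 (chr13:119690101-119690400, plus strand) and -177 in Msmo1 (chr8:64733529-64733828, minus strand). The motif was chosen after the values were seen.
Hmgcs1: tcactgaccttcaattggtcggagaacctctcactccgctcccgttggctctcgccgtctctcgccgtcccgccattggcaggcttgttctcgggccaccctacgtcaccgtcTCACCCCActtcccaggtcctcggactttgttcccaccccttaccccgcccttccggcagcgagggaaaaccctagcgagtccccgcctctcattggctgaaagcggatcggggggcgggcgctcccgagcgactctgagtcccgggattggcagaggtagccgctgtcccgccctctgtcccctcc
Msmo1: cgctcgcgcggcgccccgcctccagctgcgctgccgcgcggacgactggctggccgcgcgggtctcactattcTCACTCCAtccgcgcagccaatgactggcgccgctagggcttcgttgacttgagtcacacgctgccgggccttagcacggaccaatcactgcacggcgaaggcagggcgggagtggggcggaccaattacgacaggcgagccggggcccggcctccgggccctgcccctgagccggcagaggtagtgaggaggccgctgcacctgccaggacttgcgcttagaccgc
Fatty acid genes moved likewise, with 5 of 18 called down and 1 up, against 2.52% and 1.21% over all genes. Fads1, a desaturase, went from 9.10, 9.27 and 8.72 to 6.75, 6.31 and 6.75 in SCs and from 6.22, 6.64 and 6.61 to 6.26, 6.14, 6.08 and 6.30 in macrophages, with -2.13 (standard error 0.24, adjusted p = 0.000345). Gpam, which starts glycerolipid synthesis, differed by -1.70 (adjusted p = 0.00717) and Elovl6, an elongase, by -1.59 (adjusted p = 0.017). Scd1, a desaturase, was the exception with 1.58 (adjusted p = 0.0269) and fell in macrophages.

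Genes outside the lipid lists also fell in SCs. Prss35, a protease-like secreted protein, went from 8.99, 8.34 and 7.81 to 3.46, 3.15 and 3.93 in SCs and from 4.10, 4.31 and 4.29 to 2.67, 2.44, 2.74 and 2.46 in macrophages. Neurofibroma SCs were below wild-type macrophages in it as deposited, but these arrays lie on different levels. After centring, Prss35 had a change of -3.96 in SCs, and its macrophage change of -0.68 was not called. The difference was -3.21 (standard error 0.35, adjusted p = 0.00031). Mia, a secreted protein first found in melanoma, went from 6.57, 7.41 and 6.48 to 2.21, 2.14 and 2.47 in SCs, with -3.12 (standard error 0.32, adjusted p = 0.000237). Mlc1, a membrane protein of glia, went from 7.72, 7.66 and 6.87 to 3.32, 3.05 and 3.99, with -3.23 (standard error 0.33, adjusted p = 0.00026). Tyrp1, an enzyme of the pigment lineage, which shares the neural crest origin of SCs, read 8.38, 8.17 and 6.28 in wild-type SCs and 2.23 on each of the 3 neurofibroma SC arrays, a value close to the 2.18 to 2.25 of neurofibroma macrophages. Its difference was -3.41 (standard error 0.54, adjusted p = 0.00339). Where a gene is already low in macrophages, little fall can be read there. Of the 560 genes called down, 119 lay below the array median in both macrophage groups and 37 in both SC groups.

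Kcnj10, a potassium channel of glia, changed in opposite directions. It went from 8.24, 8.15 and 7.24 to 5.03, 4.58 and 5.51 in SCs and from 6.29, 6.05 and 5.93 to 6.53, 6.25, 5.82 and 6.86 in macrophages. SC groups were far apart, and macrophage groups overlapped as deposited, with a rise of 1.25 once arrays were centred. The difference was -3.11 (standard error 0.42, adjusted p = 0.00127). Lists of SC genes held calls in both directions or few. Of 26 peripheral myelin genes 4 were called up and 3 down, with a median of -0.08. Of 28 SC identity genes 2 were called up and 0 down. Over all genes 1.21% were called up and 2.52% down. Within SCs 8 of the 26 myelin genes fell and 3 rose, and their mean went from between 2.9 and 3.01 to between 2.10 and 2.87 above the array median without overlap. Of the SC identity genes 5 fell and 0 rose within SCs. Mbp, a myelin protein, had 1.53 (adjusted p = 0.017) and Cnp, another, -1.24 (adjusted p = 0.0213). Of 36 Wnt genes 3 were called down and 1 up, too few calls to set the list apart from those shares. Sfrp1, a secreted Wnt inhibitor among those called down, had -1.80 (standard error 0.24, adjusted p = 0.00115). Anln, a cytokinesis gene, had -1.57 (adjusted p = 0.00668). Of 38 cell cycle genes 2 were called down and 0 up, a count that 2.52% called down over all genes does not set apart.

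Several receptors of myeloid cells rose in macrophages. Fcgr4, on chromosome 1 at 171018926 to 171029761, encodes an activating receptor for immunoglobulin G. It was 4.43, 5.63 and 6.54 in wild-type macrophages and 9.88, 9.72, 9.59 and 8.76 in neurofibroma macrophages, and between 2.91 and 3.11 on all 6 SC arrays. The macrophage groups were more than 2 log2 units apart, and SCs stayed near the lower end of the scale. The difference was -3.97 (standard error 0.55, adjusted p = 0.00148). Klrb1b, a lectin-like receptor of the natural killer gene cluster, went from 4.03, 3.79 and 5.81 to 6.93, 8.34, 7.47 and 7.73 in macrophages, with -3.80 (standard error 0.59, adjusted p = 0.00327). Itgam, which encodes the CD11b used in the sort, went from 7.56, 6.53 and 7.33 to 8.95, 8.82, 8.64 and 8.36, with -1.69 (standard error 0.36, adjusted p = 0.019). The other gene of the macrophage sort, Adgre1, which encodes F4/80, had 0.51 (adjusted p = 0.597). Tlr8, a receptor for single-stranded RNA, went from 6.28, 5.81 and 6.47 to 7.62, 7.26, 7.39 and 7.22, with -1.93 (standard error 0.28, adjusted p = 0.00197). It was the sole one of 23 Toll-like receptor and adaptor genes that was called, although 6 of them rose in macrophages. With 3.73% of all genes called, 1 call among 23 does not set this list apart. Within macrophages 6.69% of all genes were called higher.

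Vegfa, the angiogenic growth factor, went from 6.70, 7.31 and 7.85 to 8.86, 8.53, 8.94 and 8.36 in macrophages and from 7.35, 7.49 and 7.34 to 6.06, 5.66 and 6.93 in SCs. The groups did not overlap in either cell type as deposited. The difference was -2.56 (standard error 0.42, adjusted p = 0.00447), with a rise of 2.36 in macrophages and an SC change of -0.27 that did not pass the test. Pgf, its relative, moved the other way with 2.89 (standard error 0.55, adjusted p = 0.00986) and fell in macrophages. Mmp14, a membrane protease, went from 8.21, 8.51 and 8.26 to 9.39, 9.25, 9.64 and 9.69 in macrophages and from 8.27, 8.51 and 8.51 to 7.86, 7.68 and 7.86 in SCs, with -1.79 (standard error 0.20, adjusted p = 0.000347). Wild-type values of both cell types overlapped, and neurofibroma values were far apart. Apoe, a lipid carrier, differed by -1.27 (adjusted p = 0.00359) and rose in macrophages, and Etv5, a transcription factor downstream of ERK, by -1.68 (adjusted p = 0.00519).

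Cxcl13, which attracts B cells, had the largest negative difference among the named genes, -4.71, with a standard error of 1.22 (adjusted p = 0.0417). It was 6.78, 5.85 and 9.69 in wild-type macrophages and 9.79, 10.22, 10.05 and 9.81 in neurofibroma macrophages, and 5.12, 8.32 and 5.50 in wild-type SCs and 3.64, 3.57 and 5.17 in neurofibroma SCs. Wild-type macrophage array 6 and wild-type SC array 2, the arrays highest for seminal vesicle genes, were far above the others of their groups. The call was lost in 9 of the 13 fits without 1 array, those without SC wild-type array 2, SC neurofibroma arrays s4481 and s4486, macrophage wild-type arrays 4 and 5 and each of the 4 neurofibroma macrophage arrays, with an adjusted p of up to 0.0969.

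Changes in opposite directions were called in both cell types for 22 genes, 17 up in SCs and down in macrophages and 5 the reverse. Besides Retnla, Ccl11, Cdh5, Lum and Kcnj10, they included Ifi202b, an interferon-induced sensor of DNA, which went from 7.16, 7.35 and 7.22 to 3.35, 3.77, 3.99 and 3.56 in macrophages and from 6.12, 4.94 and 5.28 to 6.46, 5.49 and 5.69 in SCs. The difference was 4.01 (standard error 0.40, adjusted p = 0.000226). Vcan, a matrix proteoglycan, went from 7.37, 6.30 and 5.29 to 3.61, 4.56, 4.75 and 3.78 in macrophages and from 6.01, 6.30 and 5.83 to 7.64, 7.09 and 6.97 in SCs, with 3.33 (standard error 0.58, adjusted p = 0.00587). Il33, an alarm cytokine of stromal cells, differed by 2.91 (standard error 0.37, adjusted p = 0.000892). Among the 22 genes some rises lay just above 1, such as 1.02 for Cd34 and 1.01 for Col8a1 in SCs. The SC median of 0.25 was not subtracted from them. The theme of the 22 genes was not tested.

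For several inflammatory genes the difference between the cell types was not called, and 3 of them, Il1b, Ccl5 and Il2ra, rose in both. Il1b, which encodes interleukin 1 beta, was 3.93, 6.12 and 5.05 in wild-type SCs and 7.66, 5.90 and 6.55 in neurofibroma SCs, and went from 9.71, 10.91 and 10.95 to 11.45, 11.25, 11.32 and 11.12 in macrophages. It rose by 2.57 in SCs and 1.74 in macrophages after centring. The difference of 0.90 had a standard error of 0.69 (adjusted p = 0.524). Ccl5, a T cell and monocyte chemokine, rose by 2.53 and 1.22, with a difference of 1.38 (standard error 0.55, adjusted p = 0.177). Il2ra, which encodes CD25, rose by 1.33 and 3.07, with -1.67 (standard error 0.62, adjusted p = 0.151). Ccr2, the receptor of Ccl2, had -1.18 (adjusted p = 0.076) and rose in macrophages alone, as did Clcf1, an interleukin 6 family cytokine, with -0.63 (adjusted p = 0.33). Kitl, the mast cell factor, was called higher in SCs alone, with a change of 1.04 after centring, and had 0.98 (adjusted p = 0.152). Its SC groups overlapped as deposited, with 8.16, 7.04 and 7.60 in wild type and 7.73, 7.70 and 7.78 in neurofibroma.

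Interferon genes held few calls in the difference of changes. Of 39 genes of the type I interferon response 1 was called up and 0 down, with a median difference of -0.26, although 10 rose within macrophages and 0 within SCs. For the difference of changes, a list of this size cannot tell such counts from the shares over all genes, 1.21% up and 2.52% down. The shares of all genes called higher were 6.69% within macrophages and 3.57% within SCs. Ifnb1, which encodes interferon beta, went from 10.47, 10.88 and 10.96 to 7.25, 7.96, 8.76 and 7.69 in macrophages and fell there, and stayed between 1.78 and 4.65 on the SC arrays. Its difference of 1.47 did not pass the test (standard error 0.59, adjusted p = 0.179). Ifng, which encodes interferon gamma, was between 2.41 and 3.37 on all 13 arrays, with 0.15 (adjusted p = 0.666). Ifngr1, a chain of its receptor, had -1.02 (adjusted p = 0.0279) and rose in macrophages, but lost its call in 7 of the 13 fits without 1 array (SC wild-type 1 and 3, SC neurofibroma s4992, macrophage wild-type 4 and 5, macrophage neurofibroma s4441 and s4486), with an adjusted p of up to 0.0606, and Ifngr2, the other chain, had -0.84 (adjusted p = 0.0123). Of 27 Hox genes, 18 ribosomal protein genes and 10 B cell genes 0 were called in either direction. With 3.73% of all genes called, lists this short cannot show fewer calls than the rest. These lists and the genes named in the study were chosen with results of these arrays known, so that of the 31 genes named there the 6 called up and 4 called down are no independent evidence.

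Nf1fl/fl;DhhCre mice were also sampled at 1 month, and these mutant nerve arrays gave an ordering of genes by cell type that shares no array with the comparison. Of 1569 genes higher in SCs there, 101 (6.44%) were called up and 201 (12.8%) down in SCs relative to macrophages on the way to neurofibroma. Of 1253 genes higher in macrophages, 50 (3.99%) and 74 (5.91%) were called, and of 19358 other genes 117 (0.604%) and 285 (1.47%). Genes that mark either cell type were thus called more often than the rest, in both directions. The classes were not matched for level. Many genes lay under the array median, 10149 in SCs and 10128 in macrophages, where little fall can be read. Whether level accounts for the higher shares was not tested.

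With mutant nerve in place of wild type, which keeps the same neurofibroma arrays, 177 genes were called up and 171 down. Values against mutant nerve were 5.47 for Retnla (adjusted p = 0.000864), 3.46 for Inhba (adjusted p = 0.014), 2.52 for Cxcl2 (adjusted p = 0.000413), -3.72 for Fcgr4 (adjusted p = 0.00931) and -3.01 for Vegfa (adjusted p = 0.0058). For Col1a2 it was 3.08 (adjusted p = 0.0549), for Cdh5 3.05 (adjusted p = 0.197) and for Fdft1 -1.37 (adjusted p = 0.182), none of which was called. Mia (-1.095, adjusted p = 0.465), Tyrp1 (-2.03, adjusted p = 0.102) and Mlc1 (-1.85, adjusted p = 0.052) also lost their calls. Prss35 kept its call, with -2.42 (adjusted p = 0.0252). Of 24 alternative activation genes 8 were called up, whereas 0 of 23 nerve fibroblast and 0 of 32 collagen and basement membrane genes were.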

How the data were processed

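Cells were sorted as live p75+ SCs or F4/80+;CD11b+ macrophages and their RNA was run on Affymetrix Mouse Gene 2.0 ST arrays. The authors deposited log2 values, made with Affymetrix Expression Console 1.3.1.187 (RMA, mm10), and state that ComBat was used to join 2 batches. Only these processed values were used, so background correction and normalization are the authors', and the number of arrays limits the precision. Transcript clusters with 1 gene symbol were kept, 1 per gene, giving 22180 genes. Groups were taken from the labels. The difference of changes was fitted to the 13 arrays in 1 model without covariates (limma 3.58.1 in R 4.3.3, moderated variance), with Benjamini-Hochberg adjustment over all genes. Called genes had an adjusted p under 0.05 and an absolute difference above 1. Changes within a cell type were fitted after subtracting each array's median. The fit was tested on simulated data. Named genes were the 12 largest called differences in each direction among annotated genes with 1 cell type's groups apart, the genes the study names, and up to 3 called members of each of 51 gene lists; other list members were named after their values were seen. The comparison and the lists were chosen with earlier results of these data known. Alternatives in scaling, control group, batch, variance, threshold and arrays were tried.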

Additional observations from a re-analysis of the deposited data

Results flagged for a closer look

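The difference of changes between SCs and macrophages is itself a difference between groups, and 828 genes were called in it. In 22 of them a change was called in each cell type in opposite directions. The named genes among these had differences of 6.25 for Retnla, 4.01 for Ifi202b, 3.64 for Cdh5, 3.38 for Tfpi2, 3.33 for Vcan, 3.12 for Lum, 2.91 for Il33, 2.70 for Ccl11, 2.59 for Cd34, 2.13 for Col8a1 and -3.11 for Kcnj10. The SC rises of Cd34 (1.02) and Col8a1 (1.01) were just above 1, without subtracting the SC median of 0.25.

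In the group of 4 neurofibroma macrophage arrays, the only group large enough to look for a single array apart by Dixon's test, 8 of 115 named genes had one. Array s4486 lay apart for Tnfaip2 (8.11), Adgre1 (9.53), Cntfr (2.65) and Chad (3.08), array s4441 for Cd209b (2.13) and Bmpr1b (1.62), array s4448 for Csf1 (4.90) and array s4481 for Aldoc (3.98). Chance gives about 1 in 20 groups.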

How the results depend on the processing

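The count of 828 genes (268 up, 560 down in SCs relative to macrophages) stayed between 598 and 919 when 1 array at a time was left out, with 184 to 318 up and 414 to 649 down. It was 348 (177 and 171) with mutant nerve in place of wild type, where 231 of the 828 genes were called and 16 had the opposite sign, 304 (104 and 200) at an adjusted p under 0.01, and 540 (177 and 363) without macrophage wild-type arrays 5 and 6. An alternative chosen after seeing the data, leaving out the 4 arrays with seminal vesicle transcripts, gave 601. SC and macrophage arrays of neurofibroma share the labels s4481 and s4486, but their deviations correlated at 0.05 and 0.107, so they were not taken as pairs. With a replicate block of these numbers 861 genes were called, 826 of them among the 828. Within cell types, quantile normalization gave 378 genes higher in SCs, and 435 higher and 552 lower in macrophages. With the array set as a term 40 were higher and 29 lower in SCs, and 36 and 10 in macrophages. Leaving out 1 array gave 751 to 990 higher and 653 to 794 lower in SCs, and 1289 to 2127 higher and 273 to 396 lower in macrophages. The cell type difference in mutant nerve held 2822 genes, and 2711 to 2919 without 1 array. The cause of these shifts was not tested. Of 115 named genes 30 lost their call with the array set as a term, 56 against mutant nerve, 33 without macrophage wild-type arrays 5 and 6 and 9 to 20 without 1 array, and no named gene with a call changed its direction. Some named genes without a call changed sign, 6 of them against mutant nerve.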
